A study of Mus musculus with 2 samples.

Results

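The cells described here are later neutrophil progenitors with high S100a8, 1159 of the 25928 cell barcodes deposited from 2 single-cell RNA libraries of mouse bone marrow, 397 in the Trsp KO library and 762 in the Control library. They were chosen in steps from their counts of unique molecular identifiers (UMIs, each standing for 1 captured RNA molecule). Barcodes were kept when they held 1000 or more genes and less than 10% of their UMIs came from mitochondrial genes, which left 6080 from Trsp KO and 8003 from Control. A pool was then taken of kept cells whose Elane share of UMIs was at least 0.568%, the 75th percentile of kept Control cells, with at least 1 Cebpe UMI, at most 2 F13a1 UMIs and less than 0.05% of UMIs from the secondary granule genes Camp, Ngp, Ltf and Lcn2 together. The members are the pool cells with an S100a8 share of at least 0.0327%, the median of the Control pool.

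Trsp KO mice were Trsp f/f:Mx1-Cre and Control mice were Trsp f/f, both on C57BL/6. Trsp encodes the tRNA that inserts selenocysteine, and Cre driven by the interferon-inducible Mx1 promoter deletes it in blood cells and in other interferon-responsive tissues. Mice of both genotypes received 3 doses of 500 µg of the interferon inducer pI-pC every other day. The labels put the injections 7 weeks after birth, but their phrasing does not fix the age of the mice, and marrow was taken 9 weeks after the last dose. Lineage-, cKit+ cells of femora and tibiae were frozen and thawed before loading. How many mice went into a library is not stated in the labels, and Trsp itself is not analysed here. Each genotype had 1 library. The differences therefore have neither replicates nor tests, and every interval is a 95% interval for counting error only.

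Neutrophils develop in the marrow through promyelocytes, which fill primary granules with myeloperoxidase and the serine proteases elastase, proteinase 3 and cathepsin G. The transcription factor C/EBP-epsilon then drives the switch to secondary granule proteins, while S100a8 and S100a9, the subunits of the calcium-binding protein calprotectin, accumulate to very high levels as the cells mature. Selenoproteins carry selenocysteine, which is read from a UGA codon, and many of them reduce peroxides or other oxidised molecules. When selenocysteine cannot be inserted the UGA acts as a stop codon, and a stop codon lying well upstream of the last exon junction is known to mark an mRNA for nonsense-mediated decay. NRF2 is a transcription factor, held low by KEAP1, that turns on genes of glutathione synthesis, NADPH supply and iron storage when electrophiles or oxidants build up.

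The members of the 2 genotypes differed in selenoprotein mRNAs, NRF2 target genes and a short list of other genes. Of 14 measured selenoprotein genes 8 were at least 1.5-fold lower in Trsp KO members and none was higher, beside 0.612% of all measured genes lower. Among the 8, Selenom, Selenop and Selenow were counted as measured only through their Control level. Of 19 measured NRF2 targets 9 were at least 1.5-fold higher and none was lower, beside 2.6% of all measured genes higher. Among the 9, Slc7a11 and Blvrb were counted as measured only through their Trsp KO level. The marker genes Wfdc21 and Trem3, which the rule did not use, did not differ by 1.5-fold. Nor did S100a8 and Elane, which the rule holds to the same thresholds in both libraries. Wfdc21 and Trem3 are higher in members than in pool cells below the S100a8 threshold. The shared threshold therefore also restricts how far these 2 markers can differ.

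The sequences around the selenocysteine codon are given for genes on both sides of the contrast described further on. In each line the 33 bases are the sense strand of the GENCODE M21 transcript on mm10 (GRCm38), with the selenocysteine TGA in capitals.
Gpx1: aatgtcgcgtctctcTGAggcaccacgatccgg
Gpx4: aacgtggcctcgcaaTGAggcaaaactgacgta
Selenoh: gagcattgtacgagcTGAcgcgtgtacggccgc
Selenow: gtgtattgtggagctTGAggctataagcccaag
Msrb1: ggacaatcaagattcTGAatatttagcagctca
Dio2: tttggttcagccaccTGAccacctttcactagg
Sephs2: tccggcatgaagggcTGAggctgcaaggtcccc
The first 4 of these codons lie more than 50 bases upstream of the last exon junction. The codon of Gpx1 is at chr9:108339451-108339453 on the plus strand, in exon 1 of 2 and 105 bases before the junction, and that of Selenow is at chr7:15920464-15920466 on the minus strand, in exon 2 of 6 and 243 bases before the last junction. The codon of Msrb1 lies 34 bases before its last junction, that of Dio2 lies 168 bases past it in the last exon, and Sephs2 has a single exon.

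The deposited libraries held 152092210 UMIs in 11556 barcodes (Trsp KO) and 184683653 UMIs in 14372 barcodes (Control). The members carried 9787778 and 15532551 of these UMIs in Trsp KO and Control. A Trsp KO member had a median of 23122 UMIs and 4500 genes, with 4.65% mitochondrial UMIs, and a Control member had 19678.5 UMIs and 3948.5 genes, with 3.86%. The part of this depth difference in the results was not tested beyond the thinning described with the processing. Of the deposited barcodes 39 occurred in both libraries, and no member had a barcode that was also a member in the other.

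Members made up 6.53% (5.92% to 7.18%) of kept Trsp KO cells and 9.52% (8.89% to 10.2%) of kept Control cells, a log2 ratio of -0.54 (-0.71 to -0.38, approximate interval), or 1.46-fold lower in Trsp KO. The difference was already present in the whole pool, which held 12.8% (11.97% to 13.7%) of kept Trsp KO cells and 19.0% (18.2% to 19.9%) of kept Control cells. It arose at the Elane step, which 16.1% of kept Trsp KO cells passed and 25% of kept Control cells, the Control value being fixed by the rule. Within the pool the members were 51.0% (47.5% to 54.6%) of Trsp KO cells, beside the 50% that the threshold sets in Control. With the Elane threshold set at the 75th percentile of each library, an alternative added after seeing the data, members were 413 Trsp KO and 762 Control cells and 41.3% of the Trsp KO pool, with a log2 ratio of shares of -0.49. A share of kept cells depends on how many cells of all other kinds were captured, and fewer of these cells cannot be told apart from more of others. The Elane threshold was taken from Control, and the median Elane share of members was 1.22% in Trsp KO and 1.42% in Control. Fewer cells can also not be told apart from a lower Elane share in cells of the same stage.

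The S100a8 share varied widely among the cells chosen by it. Its median among members was 0.168% of UMIs in Trsp KO and 0.178% in Control. The highest members reached 3.63% in Trsp KO and 3.87% in Control. The 10 Trsp KO members just inside the threshold had 0.0331% to 0.0362% and the 10 Trsp KO pool cells just outside it 0.0284% to 0.0327%. In Control the 10 members just inside had 0.0327% to 0.0348% and the 10 pool cells just outside 0.0315% to 0.0327%. Cells at the threshold carried 5 to 15 S100a8 UMIs, so single cells close to it could fall on either side by counting error. The threshold marks a position in a range and not a separate cell type.

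**Figure D1:**
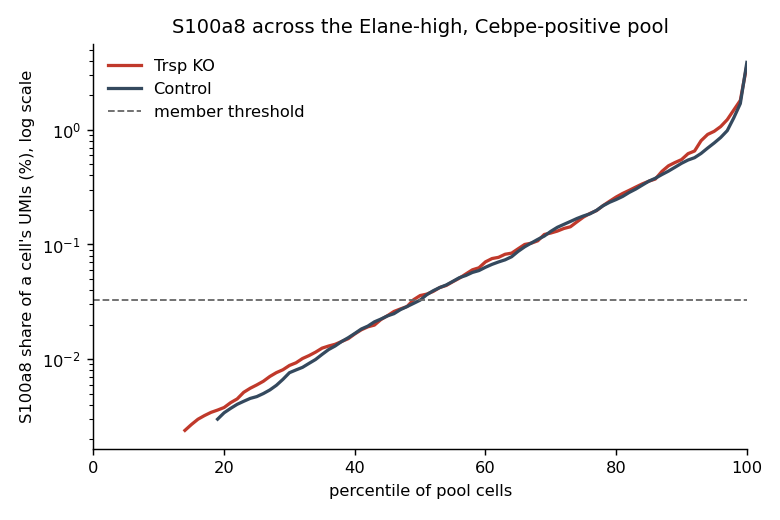
S100a8 share of each pool cell's UMIs (%, log axis) against the percentile of the pool, for Trsp KO (778 cells) and Control (1524 cells). Percentiles at which the share is 0 are not drawn. The curves lie close together and cross the dashed member threshold of 0.0327% near the middle of both pools.

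The label was checked against its markers, as CPM, the UMIs of a gene summed over all members of a library and scaled to a common total, on which the S100a8 threshold of 0.0327% equals 327 CPM. S100a8 (chromosome 3, 90668978 to 90670035, mm10) was at 3220 CPM in Trsp KO members, against 151 CPM in all other kept Trsp KO cells, and at 3034 CPM in Control members, against 167 CPM in the other Control cells. Elane, neutrophil elastase (chromosome 10, 79886247 to 79888215), was at 12167 CPM in Trsp KO members and 14078 CPM in Control members. These genes chose the cells, so their excess over other cells is by construction. Wfdc21, a whey-acidic-protein family gene, and Trem3, a receptor of the TREM family on granulocytes and macrophages, were not used. Wfdc21 was at 465 CPM in Trsp KO members, against 19.7 CPM in the other kept cells of that library, and at 444 CPM in Control members, against 22.0 CPM in the others. Trem3 was at 241 CPM in Trsp KO members, against 39.6 CPM in the others, and at 271 CPM in Control members, against 56.9 CPM in the others. The 2 markers outside the rule, Wfdc21 and Trem3, were thus higher in members than in the other kept cells of both libraries. In the pool cells below the S100a8 threshold Wfdc21 was at 83.0 CPM in Trsp KO and 73.4 CPM in Control. Trem3 was at 128 CPM in Trsp KO and 163 CPM in Control there, so it set members apart from the rest of the pool less than Wfdc21 did. The secondary granule genes Camp, Ngp and Ltf were at 16.04, 3.27 and 0 CPM in Trsp KO members and at 14.6, 2.90 and 0.129 CPM in Control members, with their sum capped by the rule.

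Free RNA from lysed cells was gauged in kept cells outside the pool with at least 5 UMIs of the B cell gene Cd79a, 41 in Trsp KO and 44 in Control. After thinning each cell to 5000 UMIs, a Wfdc21 UMI was found in 81.1% of Trsp KO and 78.0% of Control members, against 2.44% and 0% of the Cd79a cells of Trsp KO and Control. Before thinning the Wfdc21 shares were 98.5% of Trsp KO and 96.1% of Control members, against 7.32% and 0% of the Cd79a cells. The exact interval of the count of 0 in 44 cells reaches 8.04%. Mpo gave a UMI in 68.3% of thinned Trsp KO and 59.1% of thinned Control Cd79a cells, so no share of cells with an Mpo UMI is read as expression. The Cd79a cells had median depths of 18636 UMIs in Trsp KO and 25023 UMIs in Control.

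Lists of markers of other cells were summed over the members. Among T and NK markers Cd3e and Gzma had no UMI in either library, and the list summed to 857 CPM in Trsp KO and 1058 CPM in Control almost entirely through Nkg7, which neutrophil precursors also express. Monocyte markers summed to 1460 CPM in Trsp KO and 1379 CPM in Control, mostly Ly6c2, which was at 1389 CPM and 1308 CPM in Trsp KO and Control, while Csf1r had 39 UMIs in Trsp KO and 57 in Control members. Mpeg1, a pore-forming protein gene of macrophages on the same list, was at 22.7 CPM in Trsp KO and 12.6 CPM in Control members. Mpeg1 was at least 1.5-fold higher, with a log2 ratio of 0.85 (0.57 to 1.14). It was counted as measured only through its Trsp KO level. Eosinophil, basophil and mast cell markers summed to 177 CPM in Trsp KO and 338 CPM in Control, and B and plasma cell markers to 542 CPM and 960 CPM in Trsp KO and Control. Stem cell markers stood at 14.0 and 15.1 CPM, erythroid markers at 114 and 77.1 CPM, megakaryocyte markers at 7.15 and 4.76 CPM, dendritic cell markers at 102 and 139 CPM, and stromal or endothelial markers at 13.2 and 9.66 CPM, with Trsp KO given before Control in each pair. A few cells carried the plasma and eosinophil signal. At least 100 plasma cell UMIs were found in 1 Trsp KO and 3 Control members, and at least 100 eosinophil UMIs in 0 Trsp KO and 3 Control members.

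The members were next set against the other pool cells, the 381 Trsp KO and 762 Control cells below the S100a8 threshold. S100a8 chose both sets, so this is a description of the stage and not a finding. Over all genes measured in that comparison (at least 20 CPM in either set and 50 UMIs over both) 1.42% of 5712 genes were at least 1.5-fold higher and 1.98% lower in Trsp KO members, and 1.32% of 5317 genes were higher and 1.71% lower in Control members. In both libraries 57 genes were higher and 57 lower.

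S100a9, the partner of S100a8, led that list. Its level was 646 CPM in Trsp KO members, against 8.37 CPM in the low-S100a8 cells, and 574 CPM in Control members, against 7.19 CPM in the low-S100a8 cells. Fcnb, the gene of ficolin-B, a pattern recognition lectin stored in granules, had a log2 ratio of members over low-S100a8 cells of 3.40 in Trsp KO and 3.62 in Control. The same log2 ratio was 2.49 and 2.60 for Wfdc21, 1.95 and 1.98 for the adhesion molecule gene Vcam1, and 1.58 and 1.60 for the lipolysis inhibitor gene G0s2, with Trsp KO first in each pair. The genes lower in members included several of less mature cells. Cd34, a surface marker of stem and progenitor cells, had a log2 ratio of -2.24 in Trsp KO and -1.89 in Control. Cd27, a receptor of the TNF receptor family, had -1.70 and -1.61, the stem cell homeobox gene Hoxa9 -1.65 and -1.32, and Irf8, a transcription factor of the monocyte branch, -1.55 and -1.25, Trsp KO first in each pair. Of the genes of a list of the stem and multipotent program measured in this comparison, 6 of 9 were lower in Trsp KO members and 6 of 11 in Control members, with medians of -1.02 and -0.86 and none higher.

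Inside the members the same order continued along the S100a8 range. The members were divided at the quartiles of Control, which left 89, 114, 92 and 102 Trsp KO cells and 191, 190, 190 and 191 Control cells from the lowest to the highest S100a8 share. S100a9 stood at 20.7, 74.1, 195 and 2594 CPM over these quartiles in Trsp KO and at 22.8, 51.9, 199 and 2277 CPM in Control. Most of the S100a9 signal of the members was therefore in the top quartile of both genotypes. Wfdc21 was higher in each successive quartile too, at 220, 346, 465 and 906 CPM in Trsp KO and 204, 350, 480 and 807 CPM in Control. Cebpe, the gene of C/EBP-epsilon, of which the rule asked for 1 UMI, was at 179, 217, 230 and 318 CPM in Trsp KO and 214, 217, 236 and 280 CPM in Control. Mpo, myeloperoxidase, was nearly level at 10046, 10231, 10580 and 10610 CPM in Trsp KO and 8917, 9096, 9223 and 9302 CPM in Control. Cd34 went down along the range, at 35.1, 21.9, 20.5 and 10.2 CPM in Trsp KO and 36.4, 29.5, 15.4 and 13.3 CPM in Control. A list of 24 G2/M phase genes summed to 2472, 2131, 2133 and 1910 CPM in Trsp KO and 2167, 1898, 1861 and 1802 CPM in Control, while a list of S phase genes stayed between 2330 and 2425 CPM in Trsp KO and between 2343 and 2388 CPM in Control.

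**Figure D2:**
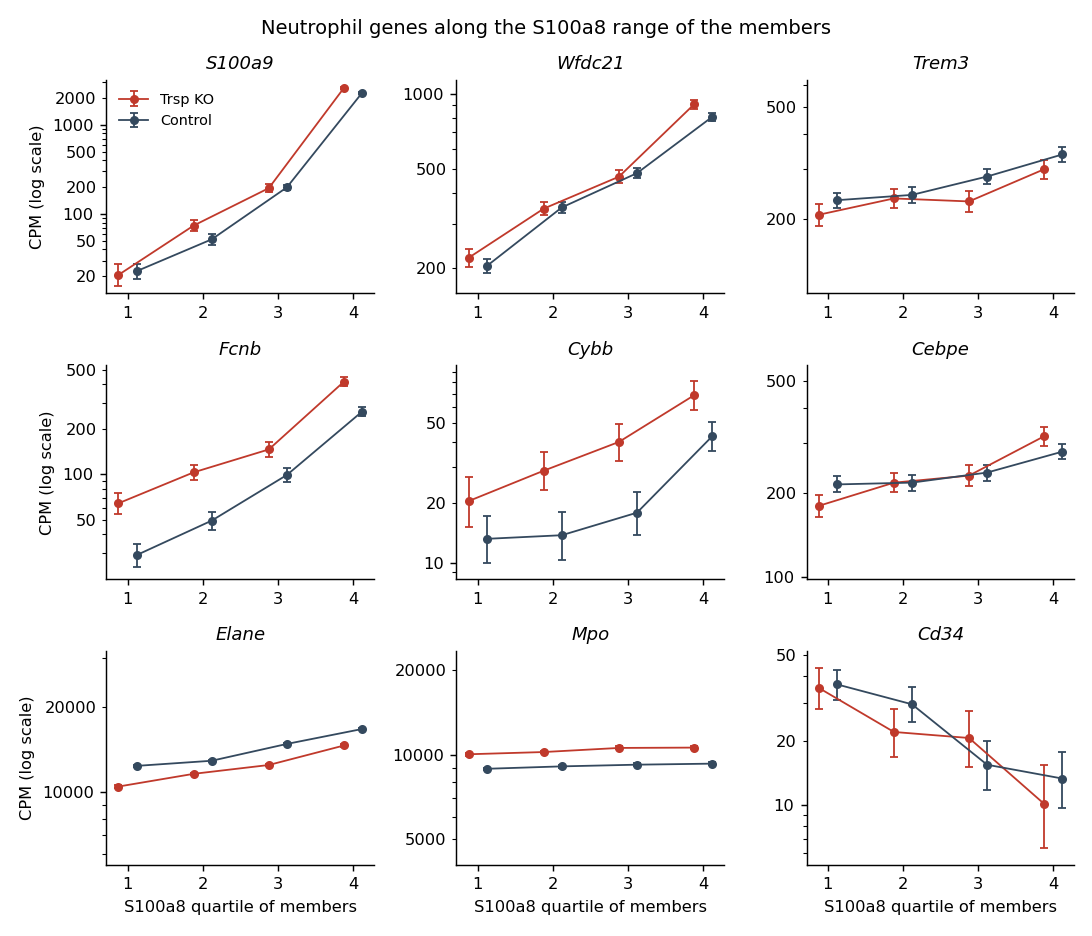
Level in CPM (log axes, a separate range for each gene) of 9 genes over the 4 S100a8 quartiles of the members, with Trsp KO points left of Control points and bars showing the exact 95% Poisson interval. S100a9 spans 20.7 to 2594 CPM in Trsp KO and 22.8 to 2277 CPM in Control, Fcnb is higher in Trsp KO in every quartile, Elane is lower in every quartile, and Mpo is nearly level.

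In the comparison of the genotypes within the members, 5388 genes were measured (at least 20 CPM in either library and 50 UMIs over both). At least 1.5-fold higher in Trsp KO were 140 of them (2.6%), and at least 1.5-fold lower 33 (0.612%). CPM divides by all UMIs, and on this scale the median gene had a log2 ratio of 0.11, so the scale shifts the split. Measured against the median gene, 57 genes (1.06%) were higher and 55 (1.02%) lower. In the low-S100a8 pool cells of the same libraries, 2.09% of 5690 genes were higher and 0.58% lower, again with a median of 0.11. Of the 173 genes called in members 87 were also called in the low-S100a8 cells, all in the same direction, which is 50.3% of the members' genes and 57.2% of the 152 genes called in those cells.

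Selenoprotein mRNAs were the list with the most genes lower in Trsp KO members. Gpx1, the gene of the abundant cytosolic glutathione peroxidase (chromosome 9, 108338903 to 108340343), had 3492 UMIs in Trsp KO members, against 35290 in Control members, or 357 CPM against 2272 CPM, a log2 ratio of -2.67 (-2.72 to -2.62). Selenoh, a nuclear selenoprotein, had a log2 ratio of -3.47 (-3.63 to -3.32), with 35.0 CPM in Trsp KO and 389 CPM in Control. Selenow, a small redox protein, was at 5.41 CPM in Trsp KO and 48.2 CPM in Control, a log2 ratio of -3.15. Gpx4, which reduces lipid hydroperoxides in membranes and guards cells from ferroptosis, was at 137 CPM in Trsp KO and 495 CPM in Control, a log2 ratio of -1.85 (-1.94 to -1.77). Selenom of the endoplasmic reticulum had a log2 ratio of -2.41, Selenop, a selenium carrier secreted by liver and other tissues, -1.77, Selenot, a redox protein of the endoplasmic reticulum, -0.79, and Selenof, which takes part in glycoprotein folding, -0.61. The call of Selenof was lost when each cell was thinned to 5000 UMIs. The median over the 14 measured selenoproteins was -0.70, beside 0.11 over all measured genes.

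The other 6 measured selenoproteins did not reach 1.5-fold. Selenok, of the endoplasmic reticulum membrane, had a log2 ratio of -0.47 and Msrb1, a methionine sulfoxide reductase, one of -0.39. Txnrd1, cytosolic thioredoxin reductase, was at 46.4 CPM in Trsp KO and 50.5 CPM in Control, a log2 ratio of -0.12. Sephs2, which makes the selenium donor, had -0.02, Selenos, of the endoplasmic reticulum degradation machinery, 0.04, and Dio2, an iodothyronine deiodinase, 0.48. Against the median gene, Selenok was also past 1.5-fold lower, which makes 9 of 14. Of the 24 listed selenoproteins, 10 were under the floor. Among these Gpx3, the secreted glutathione peroxidase, had 10 UMIs in Trsp KO members and 200 in Control members, and Selenon, a calcium-sensing protein of the endoplasmic reticulum, 63 and 203, while Dio1, Dio3, Gpx2 and Selenov had none in either library.

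On the CPM scale the genes divided by the position of the selenocysteine codon. In 8 measured genes it lies more than 50 bases upstream of the last exon junction, the distance commonly given for nonsense-mediated decay. All 8 were at least 1.5-fold lower in Trsp KO members, with log2 ratios of -3.47 to -0.61 and a median of -2.13. Selenow, Selenom and Selenop reached the floor of 20 CPM in Control only, with 5.41, 14.8 and 5.93 CPM in Trsp KO. In the other 6 the codon lies in the last exon, within 50 bases of the junction or in a gene of 1 exon. Their log2 ratios were -0.47 to 0.48, with a median of -0.07, and none was 1.5-fold lower on the CPM scale. Relative to the median gene Selenok, with its codon 5 bases before the junction, also passed 1.5-fold lower. Its ratio of -0.47 lies close to the -0.61 of Selenof, whose call was lost after thinning. Below the floor, Gpx3 (240 bases upstream, log2 ratio -3.66) and Selenon (216 bases upstream, -1.02) stood on the side of the first set. Txnrd2, mitochondrial thioredoxin reductase, did not, with its codon 83 bases upstream and a log2 ratio of 0.48 from 194 UMIs in Trsp KO and 220 in Control. Txnrd2 missed the floor narrowly, at 19.8 CPM in Trsp KO, so the result for all 8 depends on where the floor lies. Distance did not order the ratios within the first set, since Selenot has the longest distance of the 8 (470 bases) and a ratio of -0.79. Of 12 measured genes of the decay machinery none differed by 1.5-fold, with a median of 0.09, and of 7 measured genes of selenocysteine synthesis and insertion none did, with a median of -0.02.

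**Figure D3:**
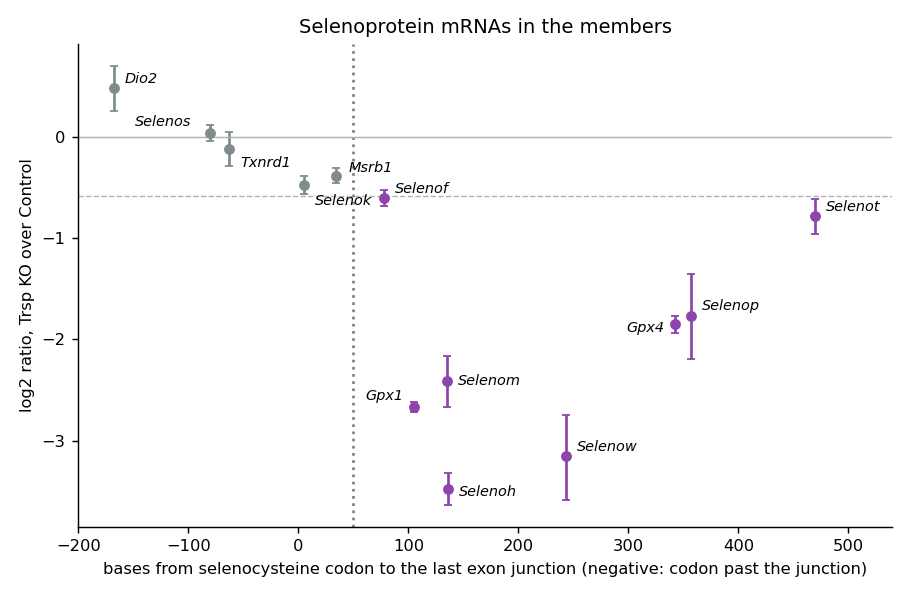
Log2 ratio of Trsp KO over Control in the members for 13 measured selenoprotein genes, with exact 95% intervals for counting error, against the bases from the selenocysteine codon to the last exon junction. Dotted vertical line, 50 bases; dashed horizontal line, 1.5-fold lower. The 8 genes right of 50 bases lie between -3.47 and -0.61, and the 5 genes left of it between -0.47 and 0.48; Sephs2 has no junction and is not drawn.

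The lower summed selenoprotein level was seen in nearly every member cell. Gpx1 gave a large part of this sum, with 35290 of 72366 selenoprotein UMIs in Control members and 3492 of 16131 in Trsp KO members. The sum therefore does not describe each selenoprotein gene. With each cell thinned to 5000 UMIs, a Trsp KO member held a median of 8 selenoprotein UMIs (range 1 to 19, 396 cells), against 23 in a Control member (range 9 to 44, 762 cells). The 5th percentile of Control members was 15 UMIs, and 3.79% (2.14% to 6.17%) of Trsp KO members reached it. The 96.3% of Control members that did so is set by the choice of percentile. Among the low-S100a8 pool cells 8.18% (5.63% to 11.4%) of Trsp KO cells reached the 5th percentile of their Control cells, 13 UMIs. The 95.8% of those Control cells is again set by the percentile. The ratio also held along the S100a8 range. The summed selenoprotein list had a log2 ratio of -1.52, -1.49, -1.50 and -1.49 from the lowest to the highest quartile, and Gpx1 one of -2.72, -2.66, -2.68 and -2.62.

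**Figure D4:**
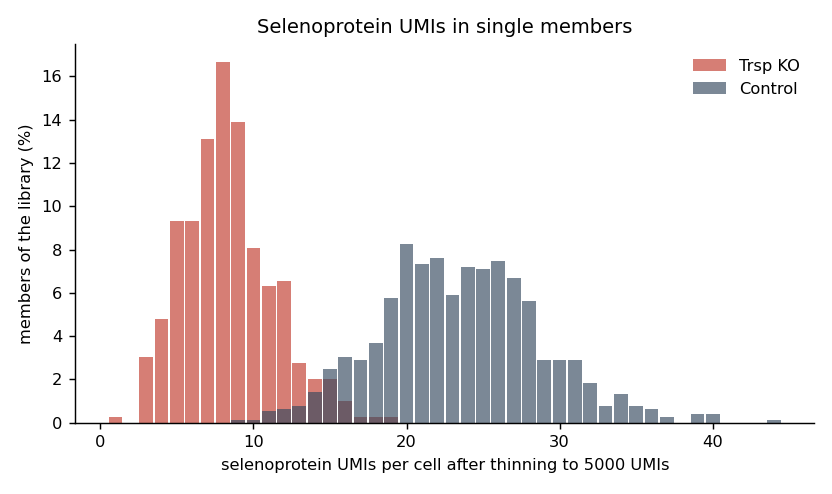
Share of members (%) by their number of selenoprotein UMIs after thinning each cell to 5000 UMIs, for Trsp KO (396 cells) and Control (762 cells). Trsp KO members centre on 8 UMIs and Control members on 23, and the overlap lies between 9 and 19 UMIs. The number sums all listed selenoproteins, of which Gpx1 gives a large part in Control.

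NRF2 target genes were the clearest group on the higher side. Slc7a11, the cystine importer that feeds glutathione synthesis (chromosome 3, 49892526 to 50443614), had 340 UMIs in Trsp KO members, against 68 in Control members, or 34.7 CPM against 4.38 CPM, a log2 ratio of 2.99 (2.61 to 3.39). A Slc7a11 UMI was found in 11.1% (8.19% to 14.6%) of thinned Trsp KO members and 1.57% of thinned Control members, against 2.44% of Trsp KO and 0% of Control Cd79a cells. Without thinning the shares were 31.5% of Trsp KO and 6.04% of Control members. Gclm and Gclc, the subunits of the enzyme that starts glutathione synthesis, had log2 ratios of 0.97 (0.87 to 1.07) and 0.78 (0.58 to 0.99). Gclm stood at 184 CPM in Trsp KO and 93.8 CPM in Control. Ftl1, ferritin light chain, was at 1101 CPM in Trsp KO and 453 CPM in Control, a log2 ratio of 1.28, although its reads can be shared with near-identical copies in the genome, and its copy Ftl1-ps1 was higher by 1.19.

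Other called targets cover peroxide removal, NADPH and export. Cat, catalase, which breaks down hydrogen peroxide, was at 52.0 CPM in Trsp KO and 25.7 CPM in Control, a log2 ratio of 1.02. Blvrb, biliverdin reductase B, had 0.97 and G6pdx, which opens the pentose phosphate pathway and supplies NADPH, 0.79. The glutathione transferase Gstm1 (0.70) and the exporter Abcc1 (0.64) passed 1.5-fold on the CPM scale only. Relative to the median gene they did not, which leaves 7 of 19. The remaining 10 targets did not pass. Gsr, glutathione reductase, had a log2 ratio of 0.48, Pgd of the pentose phosphate pathway 0.43, the peroxiredoxin Prdx1 0.26, thioredoxin Txn1 0.12, ferritin heavy chain Fth1 0.14 and Txnrd1, which is both a target and a selenoprotein, -0.12. The median over 19 targets was 0.53, beside 0.11 over all genes. Below the floor Nqo1, a quinone reductase, had 16 UMIs in Trsp KO and 2 in Control members, a log2 ratio of 3.67 (1.58 to 6.83). Srxn1, sulfiredoxin, had 49 and 13, and Hmox1, heme oxygenase 1, had 10 and 15, Trsp KO first in each pair. These UMI counts are not scaled, and the members held 9787778 UMIs in Trsp KO and 15532551 in Control. Of the genes that control NRF2 or belong to its complex, 8 were measured and none passed, with Nfe2l2, the NRF2 gene, at 0.30, Keap1 at 0.26 and its partner gene Mafg at 0.56.

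**Figure D5:**
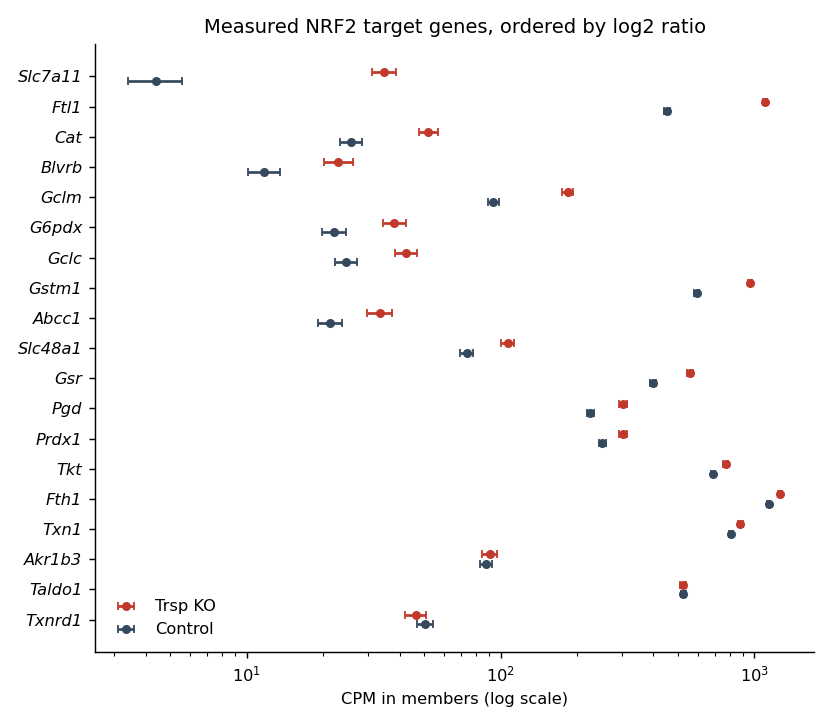
Level in CPM (log axis) of the 19 measured NRF2 target genes in the members, Trsp KO above Control in each pair, with exact 95% Poisson intervals, ordered from the highest log2 ratio (Slc7a11, 2.99) at the top to the lowest (Txnrd1, -0.12) at the bottom.

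The targets kept their differences along the S100a8 range. Slc7a11 had log2 ratios of 3.23, 3.29, 2.99 and 2.55 from the lowest to the highest quartile, Gclm 1.17, 0.78, 0.81 and 1.12, and the whole summed target list 0.42, 0.42, 0.41 and 0.39. In the low-S100a8 pool cells Slc7a11 was at 39.8 CPM in Trsp KO and 2.45 CPM in Control, a log2 ratio of 4.02. Whether the Slc7a11 ratio differs between these sets was not tested.

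Promoters of the target genes were searched for TGACNNNGC, the core of the antioxidant response element that NRF2 binds, on both strands, from 250 bases before to 50 bases after the start in RefSeq promoters on GRCm38.p6. RefSeq promoters matched 14 of the 19 measured targets and 7 of the 9 called ones, some with several promoters. The motif was present in 5 of 20 promoters of measured targets (25%) and 2 of 9 promoters of the targets at least 1.5-fold higher (22.2%), beside 15% of the promoters of all measured genes and 12.4% of all 32851 promoters. In this window it was found for Gclm, G6pdx, Pgd, Prdx1 and Txnrd1, and the first 2 of these, both called, are shown with the match in capitals (on the minus strand of the gene in both). The Gclm window is chr3:122245307-122245606 on the plus strand with the match at base -134 from the start, and the G6pdx window is chrX:74428831-74429130 on the minus strand with the match at base -57.
Gclm: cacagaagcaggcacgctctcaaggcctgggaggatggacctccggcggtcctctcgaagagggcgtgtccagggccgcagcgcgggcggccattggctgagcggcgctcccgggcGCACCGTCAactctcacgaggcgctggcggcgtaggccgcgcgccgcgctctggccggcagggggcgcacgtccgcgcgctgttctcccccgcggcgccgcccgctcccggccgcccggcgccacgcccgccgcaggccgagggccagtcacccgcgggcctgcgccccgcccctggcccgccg
G6pdx: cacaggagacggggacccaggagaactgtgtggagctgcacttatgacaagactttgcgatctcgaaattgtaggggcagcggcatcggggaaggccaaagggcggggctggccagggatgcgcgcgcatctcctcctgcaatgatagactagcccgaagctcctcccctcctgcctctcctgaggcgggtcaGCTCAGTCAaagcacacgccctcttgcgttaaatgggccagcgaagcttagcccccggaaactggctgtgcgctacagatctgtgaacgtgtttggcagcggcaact
A match is a stretch of letters and not a shown binding site, and no match says only that these letters are not in this window.

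The granule genes, which make up much of the RNA of these cells, differed less. Of 15 measured genes on the primary granule list, 1 was at least 1.5-fold higher and none lower, with a median of -0.06. Over all measured genes 2.6% were higher and 0.612% lower. Relative to the median gene none was higher and 1, Dmkn, lower, beside 1.06% and 1.02% of all measured genes. Dmkn is on the list, but whether its protein lies in granules was not tested. The members of this group did not move in 1 direction. Mpo was at 10347 CPM in Trsp KO and 9124 CPM in Control, a log2 ratio of 0.18 (0.17 to 0.19). The serine proteases stood the other way, with Prtn3, proteinase 3, at 10756 CPM in Trsp KO and 12937 CPM in Control (-0.27), Ctsg, cathepsin G, at 4910 CPM in Trsp KO and 6278 CPM in Control (-0.35), and Elane, used by the rule, at -0.21. Ms4a3, a membrane protein of granulocyte and monocyte progenitors, had -0.04, the granule proteoglycan gene Srgn -0.12, and Cd63, a granule membrane tetraspanin, 0.28. The called gene was Rab27a, a GTPase of granule release, at 0.66 (0.52 to 0.79), and its call was lost relative to the median gene. The primary granule genes together summed to 43724, 46248, 48272 and 53000 CPM over the S100a8 quartiles in Trsp KO and to 47826, 50357, 53956 and 58002 CPM in Control.

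Genes that come on in later granules and membranes included 2 called genes of 9 measured, both higher, beside 2.6% of all measured genes higher. Fcnb (chromosome 2, 28076378 to 28084885) had 1690 UMIs in Trsp KO members, against 1606 in Control members, or 173 CPM against 103 CPM, a log2 ratio of 0.74 (0.64 to 0.84). A Fcnb UMI was found in 45.2% (40.2% to 50.3%) of thinned Trsp KO members and 32.8% (29.5% to 36.3%) of thinned Control members, against 0% of Trsp KO and 2.27% of Control Cd79a cells, and without thinning in 79.1% of Trsp KO and 60.4% of Control members. Its log2 ratio was 1.15, 1.07, 0.57 and 0.67 from the lowest to the highest S100a8 quartile, and 0.96 in the low-S100a8 pool cells. Cybb, the membrane subunit of the NADPH oxidase that makes superoxide, was at 38.1 CPM in Trsp KO and 21.1 CPM in Control, a log2 ratio of 0.86 (0.64 to 1.07). Monocytes and macrophages also express Cybb, and Mpeg1 of the monocyte list stood higher by a similar log2 ratio, 0.85. Csf1r was at 3.98 CPM in Trsp KO and 3.67 CPM in Control members. A Cybb UMI was found in 12.9% of thinned Trsp KO and 8.27% of thinned Control members. Among thinned Cd79a cells the share was larger, 26.8% in Trsp KO and 45.5% in Control. The part of free RNA, or of monocytes, macrophages or B cells, in the Cybb value was not tested. Cybb was the 1 called gene of 8 measured oxidase genes, where Ncf1 had 0.32, Ncf4 0.03 and Cyba, the partner of Cybb, -0.08. Lcn2, lipocalin 2, which the rule limits, had -0.43. Camp, the cathelicidin gene, was under the floor with 157 UMIs in Trsp KO and 226 in Control, a log2 ratio of 0.14 (-0.16 to 0.44).

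Genes of early neutrophil maturation were close between genotypes. Of 23 measured, 3 were higher and none lower on the CPM scale, beside 2.6% of all measured genes higher. The median was 0.07, which becomes -0.04 relative to the median gene, where only Fcnb stays called. S100a8 had a log2 ratio of 0.09, which the shared threshold restricts, and S100a9 one of 0.17 (0.12 to 0.22). Wfdc21 had 0.07 (0.01 to 0.12) and Trem3 -0.17 (-0.24 to -0.09). S100a9 and Wfdc21 were higher in each successive S100a8 quartile, so the shared threshold also restricts them. Anxa1, annexin A1, had 0.26, Itgam, the integrin CD11b, -0.06 and Pglyrp1, a peptidoglycan recognition protein of granules, -0.15. The other called genes were Gstm1, named above, and the nucleosome-binding protein gene Hmgn2 at 0.62, both lost relative to the median gene.

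Transcription factors of the lineage stood near their Control levels. Of 19 measured, only Zeb2, a repressor active in myeloid cells, passed, with 0.69 (0.59 to 0.80), a call lost relative to the median gene. That is 1 gene of 19, beside 2.6% of all measured genes higher. Cebpe was at 233 CPM in Trsp KO and 235 CPM in Control, a log2 ratio of -0.01. Cebpa, which drives the granulocyte and monocyte fate, had 0.02, Spi1, the gene of PU.1, 0.13 and Myb, a progenitor factor, 0.11. Gfi1, a repressor needed for neutrophil formation, was at 115 CPM in Trsp KO and 78.4 CPM in Control, a log2 ratio of 0.55 (0.43 to 0.67), short of 1.5-fold. Of 12 measured receptor genes 2 were higher and none lower, again beside 2.6% of all measured genes higher. Relative to the median gene 1 was higher, beside 1.06% of all measured genes. The median was 0.37, beside 0.11 over all genes. Csf2rb, the common beta chain of the receptors for GM-CSF, IL-3 and IL-5, was called at 0.70 and Il3ra, the IL-3 receptor alpha chain, at 0.60. The call of Il3ra was lost relative to the median gene and that of Csf2rb when members were restricted to S100a8 shares above the 75th percentile of the Control pool. Csf3r, the G-CSF receptor that sustains neutrophil production, had 0.52 (0.38 to 0.65) and Kit, the receptor on which the cells were sorted, 0.35. Among 8 measured genes of the stem and multipotent program 1 was lower, beside 0.612% of all measured genes lower. It was Ifitm1, an interferon-induced membrane protein, with 10.4 CPM in Trsp KO and 21.3 CPM in Control, a log2 ratio of -1.03. Ifitm1 was counted as measured only through its Control level.

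The genes furthest apart outside these groups were of mixed kinds. The highest log2 ratio was that of Hist1h2ap, a replication-dependent histone H2A gene (chromosome 13, 21833026 to 21833507), at 3.08 (2.97 to 3.18), with 474 CPM in Trsp KO and 56.2 CPM in Control. 2 more histone genes, Hist1h4h at 1.62 and Hist1h2ae at 1.57, were on the list. Histone genes are present in near-identical copies, and their mRNAs mostly lack the poly(A) tail that this 3′ assay captures, so these values are uncertain. The glycolysis gene Eno1 was at 175 CPM in Trsp KO and 50.2 CPM in Control, a log2 ratio of 1.803, and the ribosomal protein gene Rpl35 had 1.39, both also genes with near-identical copies. The noncoding RNA gene Dleu2 had 1.19, the RNA polymerase subunit gene Polr2l 1.05, Txnip, an inhibitor of thioredoxin, 1.04 and the HSP90 co-chaperone gene Ahsa1 1.03. Each had a log2 ratio of 0.92 or more in the low-S100a8 pool cells as well. Dleu2, at 19.8 CPM in Control, was counted as measured only through its Trsp KO level.

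On the lower side Ctse, the gene of cathepsin E, an aspartic protease of endosomes (chromosome 1, 131638306 to 131675505), had 13 UMIs in Trsp KO members, against 495 in Control members, or 1.33 CPM against 31.9 CPM, a log2 ratio of -4.58 (-5.50 to -3.80). Ctse was counted as measured only through its Control level. No Trsp KO member had more than 1 Ctse UMI and no Control member more than 6. A Ctse UMI was found in 0.758% of thinned Trsp KO and 11.7% of thinned Control members, against 0% of Trsp KO and 2.27% of Control Cd79a cells. Without thinning the shares were 3.27% of Trsp KO and 44.0% of Control members, against 7.32% of Trsp KO and 29.5% of Control Cd79a cells, so the Trsp KO share is read as background, and the part of free RNA in the Control share was not tested. In the low-S100a8 cells its log2 ratio was -4.80. Phpt1, a protein histidine phosphatase gene, had -1.57, Wdr89, a WD repeat gene, -1.40, and the acid ribonuclease genes Rnaset2b and Rnaset2a -1.31 and -1.28. These 2 genes are near-identical copies that 3′ reads may not tell apart. Fabp5, a fatty acid binding protein gene, was at 22.8 CPM in Trsp KO and 42.4 CPM in Control, a log2 ratio of -0.90. Prg2, an eosinophil granule protein gene, had -4.38, but 3 Control cells held 92.0% of its 2513 Control UMIs, against 76 UMIs in Trsp KO members, and without the cells of at least 100 plasma cell or eosinophil UMIs the ratio was -0.96. Likewise Jchain (-1.16) and Igkc (-0.84), immunoglobulin genes, had 93.9% and 95% of their Trsp KO UMIs and 96.1% and 96.3% of their Control UMIs in the 3 cells that held most, and without the marker-rich cells they stood at -0.41 and -0.33.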

How the data were processed

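The members and gene lists were chosen with earlier results of these data known. The deposited matrices hold unnormalized UMI counts for 32285 features. Per the file headers they came from Cell Ranger 6.1.2, and the submitters' processing notes name mm10. The 10x 3′ chemistry was v3.1, per the labels. Annotation release and cell calling: not given in the sources used here. UMI counts remove PCR copies, and 3′ reads do not separate genes with near-identical ends.

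Groups followed the genotype labels. UMIs were summed over the members of a library and divided by their total to give CPM. A gene was measured at 20 CPM in either library and 50 UMIs over both, and called at 1.5-fold. With 1 library per genotype no test was made. Ratios have exact conditional binomial intervals, shares exact Clopper-Pearson intervals and sums exact Poisson intervals, all at 95%, except that the ratio of cell shares has an approximate normal interval. All cover counting error only. The ratios and intervals were tested on simulated Poisson counts, which hold neither UMIs concentrated in single cells nor differences between libraries. Cells over 100 marker UMIs, shared barcodes and predicted doublets stayed in; 9 Trsp KO members (2.27%) and 19 Control members (2.49%) lay above the Control threshold of Scrublet (scanpy 1.11.5), which automatically marked 1.13% of kept Trsp KO and 3.02% of kept Control cells. For shares of cells, each cell was thinned to 5000 UMIs, which left out 1 Trsp KO and 0 Control members. Named genes were the markers and rule genes, measured selenoproteins, up to 12 highest and 12 lowest genes whose interval excludes 1.5-fold (predicted genes last), up to 8 highest and lowest by stage in both libraries, and up to 6 (12 in main lists) per list. Further members were named to describe a list, chosen after their values were seen. Kept cells with at least 1% of UMIs from the secondary granule genes numbered 6 in Trsp KO and 10 in Control, and cells that met the other pool conditions but passed the secondary granule limit numbered 8 and 11, too few to compare. The 16 alternatives planned and 3 added used edgeR 4.0.16 for TMM. Sequences come from GENCODE M21 and RefSeq tables (Python 3.11.15, numpy 2.4.6, scipy 1.17.1, pandas 2.3.3).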

Additional observations from a re-analysis of the deposited data

How the results depend on the processing

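The share of members was lower in Trsp KO under every alternative that changes the cells, with a log2 ratio between -0.68 (F13a1 at 0) and -0.44 (at least 2000 genes). Members were 24.9% of the Trsp KO pool when the threshold was the 75th percentile, which sets the value, and 41.3% with the Elane threshold set within each library. The 140 higher and 33 lower genes became 57 and 55 with median-of-ratios size factors, 59 and 52 with TMM factors, 407 and 62 after thinning to 5000 UMIs, 24 and 10 with a floor of 100 CPM, 1279 and 559 without a CPM floor, 15 and 18 at 2-fold, and there were 240 higher genes with the 75th percentile. The size factors subtract the shift of the median gene, and thinning and lower floors leave fewer UMIs per gene. The part of fewer UMIs in the larger counts was not tested. The 75th percentile leaves 194 Trsp KO and 381 Control members. The selenoprotein median was -0.54 under 5% mitochondrial UMIs, -0.56 after thinning and -0.56 without a CPM floor, and the NRF2 target median was 0.67 without a CPM floor, where other genes enter the lists. Among the named genes past 1.5-fold only Igkc turned its direction, to 0.15 with F13a1 at 0. No paired analysis was possible because each genotype has 1 library. For the same reason no replicate could be left out, and differences between mice, injections or library preparations cannot be told apart from genotype.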

Other observations

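In energy metabolism, of 24 measured nuclear genes of oxidative phosphorylation none was called, with a median log2 ratio of -0.13, and Cycs, cytochrome c, stood lowest at -0.50 and passes 1.5-fold relative to the median gene. Of the 13 genes encoded in mitochondria none was called, with a median of 0.22, and mt-Co1, a subunit of cytochrome oxidase, stood highest at 0.53. Of 14 measured glycolysis genes Eno1 was called, and of 8 pentose phosphate genes G6pdx and H6pd (0.86), which both make NADPH. Of 15 measured iron and heme genes 3 were higher, namely Ftl1, Blvrb and Slc40a1, the iron exporter ferroportin, at 38.1 CPM in Trsp KO and 19.4 CPM in Control (a log2 ratio of 0.98). Over all measured genes 2.6% were higher. Blvrb and Slc40a1 were counted as measured only through their Trsp KO level. Ftl1, Blvrb and G6pdx are also counted among the NRF2 targets above. Tfrc, the transferrin receptor, had 0.56.

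Cell division and stress lists held few called genes. Among all measured genes 2.6% were called higher and 0.612% lower. Of 25 S phase genes none was called, with a median of 0.00 and Mcm7, a subunit of the replicative helicase, lowest at -0.47, which passes 1.5-fold relative to the median gene. Of 24 G2/M genes none was called, with a median of 0.22, while Nusap1 and Mki67, genes of mitotic chromosomes and spindles, had 0.56 and 0.55. Chaperones and folding enzymes of the endoplasmic reticulum had no called gene of 20, with a median of -0.06. Of 10 measured integrated stress response genes the 1 called was Slc7a11, and Atf4, the main factor of that response, had 0.17. Of 20 proteasome genes Adrm1, a ubiquitin receptor, was called at 0.87. Bst2, an interferon-induced membrane protein gene, was not called at -0.47, but passes 1.5-fold lower relative to the median gene.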
